A study of Mus musculus with 9 samples.

Results

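The comparison is between ethanol-fed mouse livers that received a Mettl3 virus and ethanol-fed livers that received a control virus. Its members are 6 of the 9 RNA-seq libraries of the series, 3 in each group, chosen by their titles, and every gene of the table that holds both groups. That table has 16470 genes, of the 17046 in either deposited table. Wild-type mice were injected through the tail vein with AAV8-TBG-Mettl3-3×FLAG-WPRE or, as control, AAV8-TBG-MCS-3×FLAG-WPRE. AAV8 is an adeno-associated virus that infects liver well, and TBG is a promoter active in hepatocytes, so the added Mettl3 is driven in that cell type. Diet began 3 weeks later and ran for 10 days. All 6 livers had an ethanol diet and then 1 ethanol binge. The 3 remaining livers of the series had the control virus, a control diet and a maltose binge, and are called pair-fed here; their levels stand beside the genes described, with no test, because both comparisons would share the control-virus ethanol livers. The titles say WT or Mettl3OE and name no virus, and no label gives strain, sex, age or batch. The labels do not say that each library came from a different animal, so p-values measure the spread between these samples only. Reads from the virus and from the mouse's own Mettl3 cannot be told apart in a gene total.

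METTL3 is the catalytic subunit of the nuclear complex that writes N6-methyladenosine (m6A), the commonest internal modification of messenger RNA. METTL14 and WTAP support it, ALKBH5 and FTO can remove the mark, and YTH-domain and IGF2BP proteins bind it and alter the splicing, translation or decay of marked transcripts. In hepatocytes m6A is known to touch transcripts of lipid metabolism, the clock and stress responses. None of that is measured here: the data are transcript levels, not the mark.

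Levels are FPKM, fragments scaled to transcript length and to the library's mapped total. A log2 fold change is Mettl3 virus minus control virus on log2(FPKM + 1), which understates the change of low genes. A gene was tested where at least 3 of the 6 livers had an FPKM of at least 1, which left 9706 genes, and it was called where limma's adjusted p was below 0.05. Whole reads recovered from the tables totalled 34655840 to 38159563 per liver, and the defining hepatocyte markers were present in every liver. The livers did not stand evenly. Among genes at an FPKM of 1 or more, control-virus liver 1 differed at least 2-fold from both of its group mates in 236 and Mettl3-virus liver 3 did so in 354, against 31 to 127 in the other livers. On the first principal component, which held 60.9% of the variance, control-virus liver 1 lay at -37.5 and Mettl3-virus liver 3 at -9.41, with control-virus livers 2 and 3 at -1.36 and 1.26 and Mettl3-virus livers 1 and 2 at 20.3 and 26.8. Mettl3-virus liver 3 was therefore on the control side of that axis. Results that rest on these livers are given with and without them.

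Mettl3 rose in every liver that received its virus. In FPKM it was at 5.44, 4.86 and 3.78 in control-virus livers 1, 2 and 3, and at 38.5, 24.98 and 33.3 in Mettl3-virus livers 1, 2 and 3. The groups did not overlap, and the pair-fed livers, at 3.97, 3.10 and 3.38, lay near the control-virus livers. The log2 fold change was 2.54 (SE 0.19; 95% interval 2.09 to 2.98), with a limma adjusted p of 0.0257. The gene lies on chromosome 14 from 52294841 to 52308741 in GRCm38. Its level did not depend on the livers that stood apart: Mettl3-virus liver 3 was between the other Mettl3-virus livers. The call was kept without control-virus liver 1 (limma adjusted p 0.0476) or Mettl3-virus liver 2 (0.026). It was lost without control-virus liver 2 (0.204), control-virus liver 3 (0.141), Mettl3-virus liver 1 (0.162) or Mettl3-virus liver 3 (0.108).

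Mettl3 was the one gene called, 0.0103% of those tested; 0 genes (0%) were called lower. The next smallest adjusted p was 0.151. At an unadjusted p below 0.05, limma had 271 genes higher (2.79%) and 452 lower (4.66%); limma-voom on the recovered reads also called Mettl3 alone, with 391 higher and 466 lower at an unadjusted p below 0.05. The 3 livers of one group all lay above the 3 of the other for 599 genes higher with the Mettl3 virus (6.17%) and 643 lower (6.62%). Differences of at least 2-fold with such separation were fewer and mostly downward, 11 genes higher (0.113%) and 77 lower (0.793%). For 8688 genes, 89.5% of those tested, the 95% interval of the fold change lay within 2-fold either way on the log2(FPKM + 1) scale. For low genes the FPKM itself can differ by more. Map3k21, with an interval of 0.25 to 0.78, had group means 2.20-fold apart. Intervals given below as within 2-fold are on the same scale. Over all genes tested the log2 fold change had a median of -0.04, which median-ratio scaling moved to 0.00. It was below 0 for 5715 genes and above 0 for 3991, which is the background for each list's count below 0. With median-ratio scaling 4811 genes were below 0, and with limma-voom 4526. Genes other than Mettl3 are therefore described by their levels, and none of them is reported as changed.

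**Figure D1:**
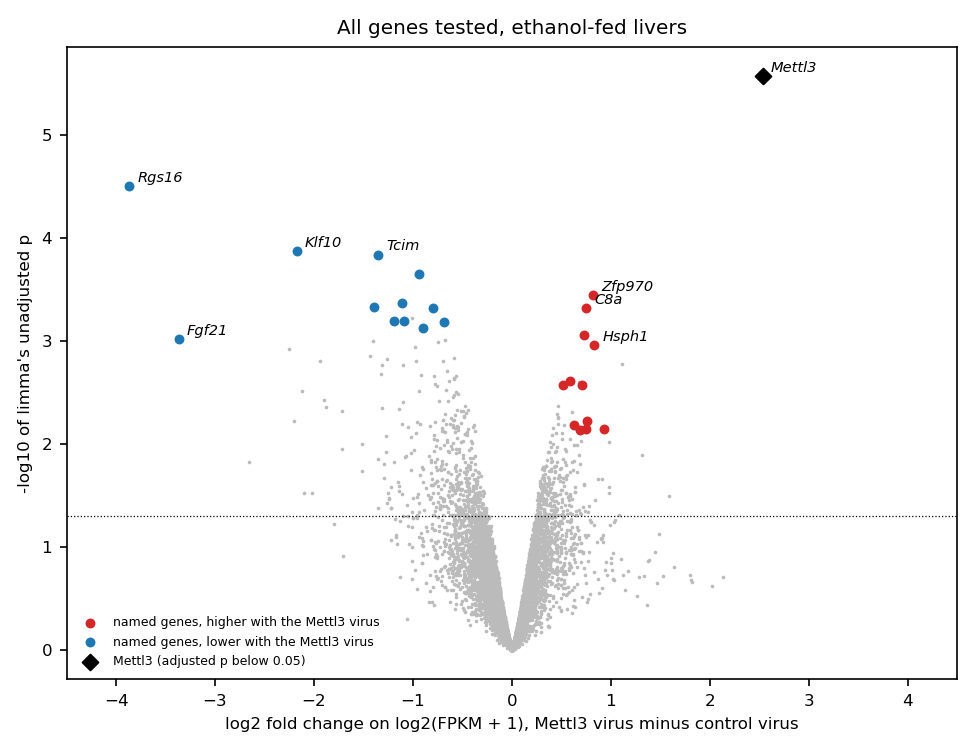
Each point is 1 of the genes tested, with its log2 fold change (Mettl3 virus minus control virus, log2(FPKM + 1) scale) across and -log10 of limma's unadjusted p upward; the dotted line marks 0.05. Mettl3 (black diamond) stands at 2.54, Rgs16 at -3.87 and Fgf21 at -3.37, and the named lower genes (blue) reach further from 0 than the named higher genes (red).

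Besides Mettl3, no gene of the m6A machinery was called, and most differed little between the groups. Of the m6A writers 11 were tested, 7 above and 4 below 0, and Mettl3 alone had an unadjusted p below 0.05. The list's median log2 fold change was 0.05. With median-ratio scaling and with limma-voom, 2 writers were higher at that p, and the medians were 0.08 and 0.16. Mettl14, the partner that holds the RNA substrate, was at 2.96, 3.15 and 2.58 FPKM in the control-virus livers and 2.93, 2.47 and 2.58 in the Mettl3-virus livers, a log2 fold change of -0.09 (SE 0.11). Wtap, which anchors the pair in nuclear speckles, was at 4.40, 4.61 and 4.02 FPKM against 4.77, 5.19 and 5.35 FPKM, and its groups did not overlap (log2 fold change 0.19, SE 0.11; limma adjusted p 0.645). Virma, the scaffold of the complex, had 0.14 (SE 0.12), Rbm15 -0.02 (SE 0.13) and Rbm15b 0.20 (SE 0.16). Zc3h13 varied most between livers, from 3.68 FPKM in control-virus liver 1 and 4.29 in Mettl3-virus liver 3 to 19.9 in Mettl3-virus liver 2. The erasers Alkbh5 and Fto had log2 fold changes of 0.11 (SE 0.13) and 0.03 (SE 0.11). On the log2(FPKM + 1) scale, all 12 readers tested and 9 of the 11 writers had intervals within 2-fold. Of the readers 8 were above and 4 below 0, with a median of 0.08. The writer Zcchc4 and the reader Igf2bp3 were below the minimum, at no more than 0.474 and 0.0103 FPKM in any of the 6 livers, and the reader Igf2bp1 is not listed in the table.

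Rgs16, a regulator that speeds the shut-off of G protein signals and is known in liver as a target of the glucose-sensing factor ChREBP, had the largest difference of all genes tested. It was at 227, 85.1 and 99.7 FPKM in control-virus livers 1, 2 and 3, and at 4.76, 11.1 and 8.08 in the Mettl3-virus livers. The lowest control-virus liver was thus far above the highest Mettl3-virus liver, and the pair-fed livers, at 86.1, 97.2 and 61.4, were on the control-virus side. Its log2 fold change was -3.87 (SE 0.41), with limma's adjusted p at 0.151. Without control-virus liver 1 the adjusted p was 0.0673. Fitted with the 9 livers together it passed, with an adjusted p of 0.0156, the lowest over the alternatives; the highest was 0.517, with the replicate block.

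Fgf21, the hepatocyte hormone that responds to fasting, sugar, alcohol and amino acid stress, came next in size. It was at 205, 45.9 and 31.4 FPKM in the control-virus livers and at 5.13, 6.25 and 5.40 in the Mettl3-virus livers. The Mettl3-virus livers lay close together and overlapped the pair-fed livers, at 6.53, 6.66 and 4.48 FPKM, while control-virus liver 1 was far above its mates. The log2 fold change was -3.37 (SE 0.62), with a limma adjusted p of 0.497. Without control-virus liver 1 it was -2.57 and passed, with an adjusted p of 0.0476, and over all alternatives the adjusted p ran from 0.0476 to 0.98.

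The promoters of these genes with the largest differences follow as RefSeq gives them for GRCm38.p6, from 250 bases before to 50 after the gene's start, 5′ to 3′ on the gene's strand. Capitals mark matches, on either strand, to the E-box CACGTG, the cAMP response element TGACGTCA or the composite TGATGNAA read by CHOP and ATF4. The window of Rgs16 is chr1:153740103-153740402, plus strand, and that of Fgf21 is chr7:45615441-45615740, minus strand.
Rgs16: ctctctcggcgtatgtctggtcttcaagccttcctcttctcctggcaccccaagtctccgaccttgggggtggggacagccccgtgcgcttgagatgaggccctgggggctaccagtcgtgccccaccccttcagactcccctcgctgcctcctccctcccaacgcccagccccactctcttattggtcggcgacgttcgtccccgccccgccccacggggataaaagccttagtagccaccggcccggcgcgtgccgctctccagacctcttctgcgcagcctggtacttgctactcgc
Fgf21: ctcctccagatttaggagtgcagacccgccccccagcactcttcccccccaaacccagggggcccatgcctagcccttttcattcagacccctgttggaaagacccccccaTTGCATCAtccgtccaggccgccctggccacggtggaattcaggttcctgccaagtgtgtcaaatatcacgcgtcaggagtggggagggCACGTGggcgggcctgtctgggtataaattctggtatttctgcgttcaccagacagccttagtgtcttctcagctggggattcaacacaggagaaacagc
In this window Fgf21 has 1 E-box, starting 50 bases before the gene's start, and 1 TGATGNAA match, starting 139 bases before it, read on the other strand. The window of Rgs16 has none of the 3 motifs. Among 32851 windows of the same length, 7.15% hold the E-box, 1.79% the cAMP response element and 3.97% TGATGNAA. Of the 17 tested stress response genes described next, the promoters of 5 hold TGATGNAA (Atf3, Trib3, Chac1, Nupr1 and Fgf21). Among all 27025 genes with a window 4.51% hold it, 8.09% the E-box and 2.03% the cAMP response element. Of the same 17, 3 hold the E-box and 1 the cAMP response element. TGATGNAA is held by 1 of 18 chaperone, 2 of 17 lipid synthesis and 0 of 14 immediate early genes. The stress response list was drawn up around ATF4 and CHOP targets, so its share says nothing of the virus. A match is a string of letters and no measure of binding.

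Genes of the integrated stress response, through which phosphorylated eIF2alpha raises ATF4 and its targets, lay lower with the Mettl3 virus. Of 17 tested, 16 were below 0 and 9 of them had an unadjusted p below 0.05; 0 were higher at that p, and the list's median log2 fold change was -1.0 against -0.04 for all genes. No member passed after adjustment. Gdf15, a stress hormone that curbs appetite, was at 27.2, 9.54 and 6.49 FPKM in the control-virus livers and 2.18, 3.07 and 2.29 in the Mettl3-virus livers, with no overlap (log2 fold change -1.90, SE 0.45; limma adjusted p 0.641). Ddit3, which encodes the pro-apoptotic factor CHOP, was at 26.0, 16.0 and 15.4 against 10.8, 8.46 and 5.86 FPKM, again with no overlap. Ddit4, an inhibitor of the growth kinase mTORC1, was at 28.4, 14.5 and 8.37 against 4.89, 5.00 and 2.36 FPKM. The Mettl3-virus levels of Gdf15 were like those of the pair-fed livers (3.17, 2.81 and 4.70), whereas those of Ddit3 stayed above the pair-fed 2.57, 2.28 and 1.99.

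The stress genes did not all follow the same livers. Atf3, an early stress factor, was at 41.5 and 18.4 FPKM in control-virus livers 1 and 2 but 2.37 in liver 3, against 1.51, 0.708 and 1.59 with the Mettl3 virus. Trib3, a pseudokinase induced by ATF4 and CHOP, was at 28.8, 22.2 and 2.65 against 2.29, 1.02 and 3.79 FPKM, so its groups overlapped through control-virus liver 3. Chac1, which degrades glutathione, peaked in control-virus liver 2, at 33.0 FPKM, with 9.82 and 9.95 in livers 1 and 3 and 4.98, 6.95 and 4.83 with the Mettl3 virus. Atf4 itself differed less, at 93.5, 86.2 and 80.4 against 74.5, 77.6 and 45.2 FPKM (log2 fold change -0.43, SE 0.21), and Atf5 overlapped throughout. Cebpb was the member above 0, with a log2 fold change of 0.23 (SE 0.21). Without control-virus liver 1 the list's median was -0.72 with 6 members at an unadjusted p below 0.05, and without both livers that stood apart it was -0.71, also with 6. Without control-virus liver 3 the median was -1.39, with 13. As mean log2(FPKM + 1) over the list, the control-virus livers stood at 4.83, 4.55 and 3.47 and the Mettl3-virus livers at 3.12, 3.16 and 3.12, above the 2.73 to 2.77 of the pair-fed livers.

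Chaperones of the endoplasmic reticulum (ER), the folding arm of the unfolded protein response, lay the other way. Of 21 tested, 20 were above 0, with a median log2 fold change of 0.70, but 1 (Pdia6, a disulfide isomerase) had an unadjusted p below 0.05 and 1 (the lectin chaperone Canx) had groups that did not overlap. Hspa5, which encodes the master chaperone BiP, was at 395, 1523 and 999.5 FPKM in the control-virus livers and 1893, 2013 and 759 in the Mettl3-virus livers. Control-virus liver 1 and Mettl3-virus liver 3 were the low livers of their groups, and the log2 fold change was 0.75 (SE 0.56; limma adjusted p 0.694). Sdf2l1, a partner of BiP, had the same order, at 7.16, 64.5 and 49.3 against 109, 115 and 35.9 FPKM. All of these were above the pair-fed livers, where Hspa5 was at 238, 160 and 150.

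The chaperone difference depended on which livers were kept. Its median was 0.28 with 0 members at an unadjusted p below 0.05 without control-virus liver 1, 0.97 with 8 without Mettl3-virus liver 3, and 0.66 with 14 without both. At that p those fits had 326, 1747 and 1448 of all genes tested, against 723 with all 6 livers. Of these, 130, 605 and 573 were higher and 196, 1142 and 875 lower, against 271 and 452. Without control-virus liver 3, 145 were higher and 683 lower. Without Mettl3-virus liver 1 or 2, 95 or 90 were higher and 233 or 213 lower. These totals are the background for the leave-out counts of the other lists.

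**Figure D2:**
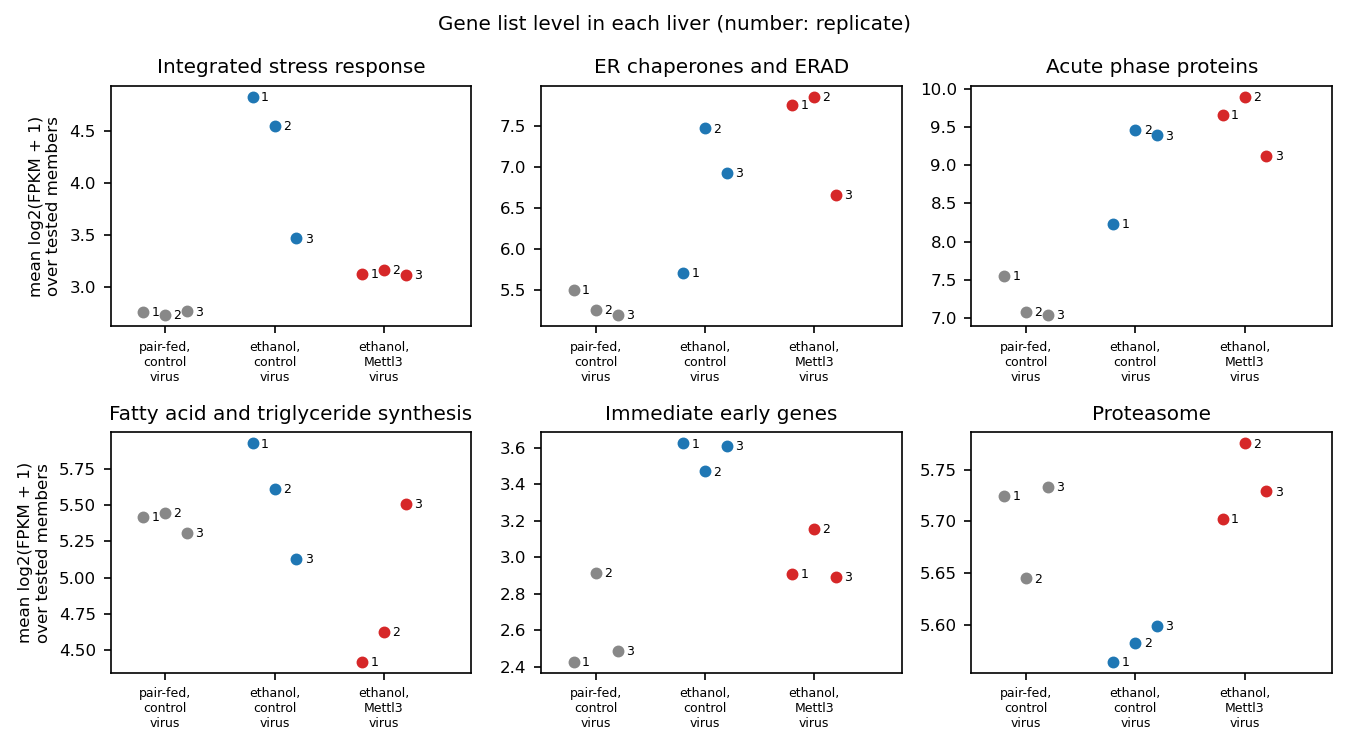
Mean log2(FPKM + 1) over the tested members of 6 gene lists (vertical axes, each with its own range) in each of the 9 livers, with the replicate number beside each point. Integrated stress response, immediate early and proteasome levels separate the ethanol groups, whereas chaperone, acute phase and lipid synthesis levels overlap through Mettl3-virus liver 3. The immediate early list includes the named lower genes Rgs16, Klf10 and Klf6, and the integrated stress response list includes the named lower gene Fgf21. The levels of these 2 lists partly restate those genes.

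Acute phase proteins, which hepatocytes secrete under inflammatory cytokines, had 25 of 28 tested members above 0 and a median of 0.58, with 2 higher at an unadjusted p below 0.05. Those were the pentraxins Apcs (serum amyloid P) and Crp. Apcs was at 287, 558 and 409 FPKM in the control-virus livers and 751, 891 and 677 in the Mettl3-virus livers, with no overlap (log2 fold change 0.93, SE 0.25; limma adjusted p 0.641). Crp was at 156, 184 and 245 against 340, 368 and 268 FPKM, also with no overlap, and at 231, 204 and 261 in the pair-fed livers. Saa2, a serum amyloid A whose reads can be shared with its near copy Saa1, was at 994, 8096 and 6617 against 9930, 11020 and 5642 FPKM, so control-virus liver 1 and Mettl3-virus liver 3 were again the low ones. Orm3 went the other way, with a log2 fold change of -0.74 (SE 0.33), though near copies share its reads. Without control-virus liver 1 the list's median was 0.20, without Mettl3-virus liver 3 it was 0.72, and without both it was 0.37, with 2, 7 and 14 members higher at an unadjusted p below 0.05.

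Neutrophil markers varied in the same livers. All 7 tested were above 0, with a median of 0.36. The median was -0.06 without control-virus liver 1, 0.89 without Mettl3-virus liver 3 and 0.23, with 6 of 7 above 0, without both. Their summed level was 515, 1995 and 2195 FPKM in the control-virus livers and 3204, 3789 and 932 in the Mettl3-virus livers. In the pair-fed livers it was 24.3 to 61.6 FPKM. Most of that sum was Lcn2, an iron-scavenger protein that is not restricted to neutrophils; S100a9, a neutrophil protein, was at 4.52, 38.4 and 42.0 against 43.9, 65.2 and 31.4 FPKM. The low livers were again control-virus liver 1 and Mettl3-virus liver 3, and the defining granule genes Mpo, Elane, Camp and Ltf are not listed in the table. Summed Kupffer cell markers ran from 266 to 379 FPKM in the control-virus livers and from 227 to 368 in the Mettl3-virus livers, so the groups overlapped. In whole tissue, fewer cells of a type and less RNA per cell cannot be told apart, and the part of these cells in the differences above was not tested. No marker of the 10 cell type lists that is in the table was at 0 in all 6 livers.

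Other secreted defence proteins were among the 12 named genes higher with the Mettl3 virus. The 12 had the smallest p after Mettl3 among 49 genes, Mettl3 included, that were at least 1.5-fold apart with no overlap. C8a, a chain of the complement membrane attack complex, was at 53.5, 66.2 and 60.9 FPKM in the control-virus livers and 108, 94.8 and 101 in the Mettl3-virus livers. All 3 Mettl3-virus livers were also above the pair-fed livers, at 55.4, 48.1 and 52.7, and the log2 fold change was 0.75 (SE 0.12; limma adjusted p 0.453). Mbl1, a mannose-binding lectin that starts the complement cascade, was at 24.2, 30.2 and 34.9 against 50.1, 52.7 and 44.0 FPKM, the latter like the pair-fed 47.5, 41.7 and 44.8. Hsph1, a cytosolic heat shock protein that exchanges nucleotide on HSP70, was at 3.27, 4.35 and 4.19 against 6.32, 8.24 and 8.94 FPKM (log2 fold change 0.83, SE 0.16). Pck1, the gate enzyme of glucose production, was at 457, 430 and 488 against 795, 566 and 887 FPKM (log2 fold change 0.69, SE 0.18). The other 6 were Zfp970, Etfbkmt, Sertad3, Map3k21, Rpap3 and Yipf2, with log2 fold changes from 0.51 to 0.82; Apcs and Crp complete the 12. Limma's adjusted p for the 12 was between 0.453 and 0.641.

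The 12 named lower genes, taken from 193 by the same rule, held several fast-responding regulators. Klf10, a zinc finger repressor induced by TGF-beta and by glucose, was at 47.4, 34.8 and 27.8 FPKM in the control-virus livers and 8.28, 9.70 and 4.46 in the Mettl3-virus livers. The Mettl3-virus livers overlapped the pair-fed livers, at 10.1, 17.7 and 7.92, and the log2 fold change was -2.17 (SE 0.29; limma adjusted p 0.349). Tcim, a regulator of Wnt and NF-kB signals, was at 39.8, 26.3 and 26.9 against 12.4, 9.83 and 11.8 FPKM, beside 12.01, 12.8 and 11.9 in the pair-fed livers (log2 fold change -1.36, SE 0.18). Its adjusted p was 0.349, and it ran from 0.0377, with all 9 livers fitted together, to 0.883, without Mettl3-virus liver 2. Klf6, another zinc finger factor of injury responses, was at 10.3, 8.72 and 7.94 against 4.77, 4.99 and 3.42 FPKM, and the Mettl3-virus livers overlapped the pair-fed 3.52, 4.95 and 4.40. Maff, a small MAF factor that pairs with NRF2, had a log2 fold change of -1.11 (SE 0.18). Bhlhe40, a clock-linked repressor, was at 66.4, 61.3 and 50.3 against 31.4, 27.4 and 18.8 FPKM, below the pair-fed range of 41.9 to 51.8. Sowahb, Fnip2, Tsc22d1 and Niban2 had log2 fold changes of -0.94, -0.79, -1.09 and -0.68. For these 4 the highest Mettl3-virus liver was below the lowest control-virus liver, as for every named lower gene.

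**Figure D3:**
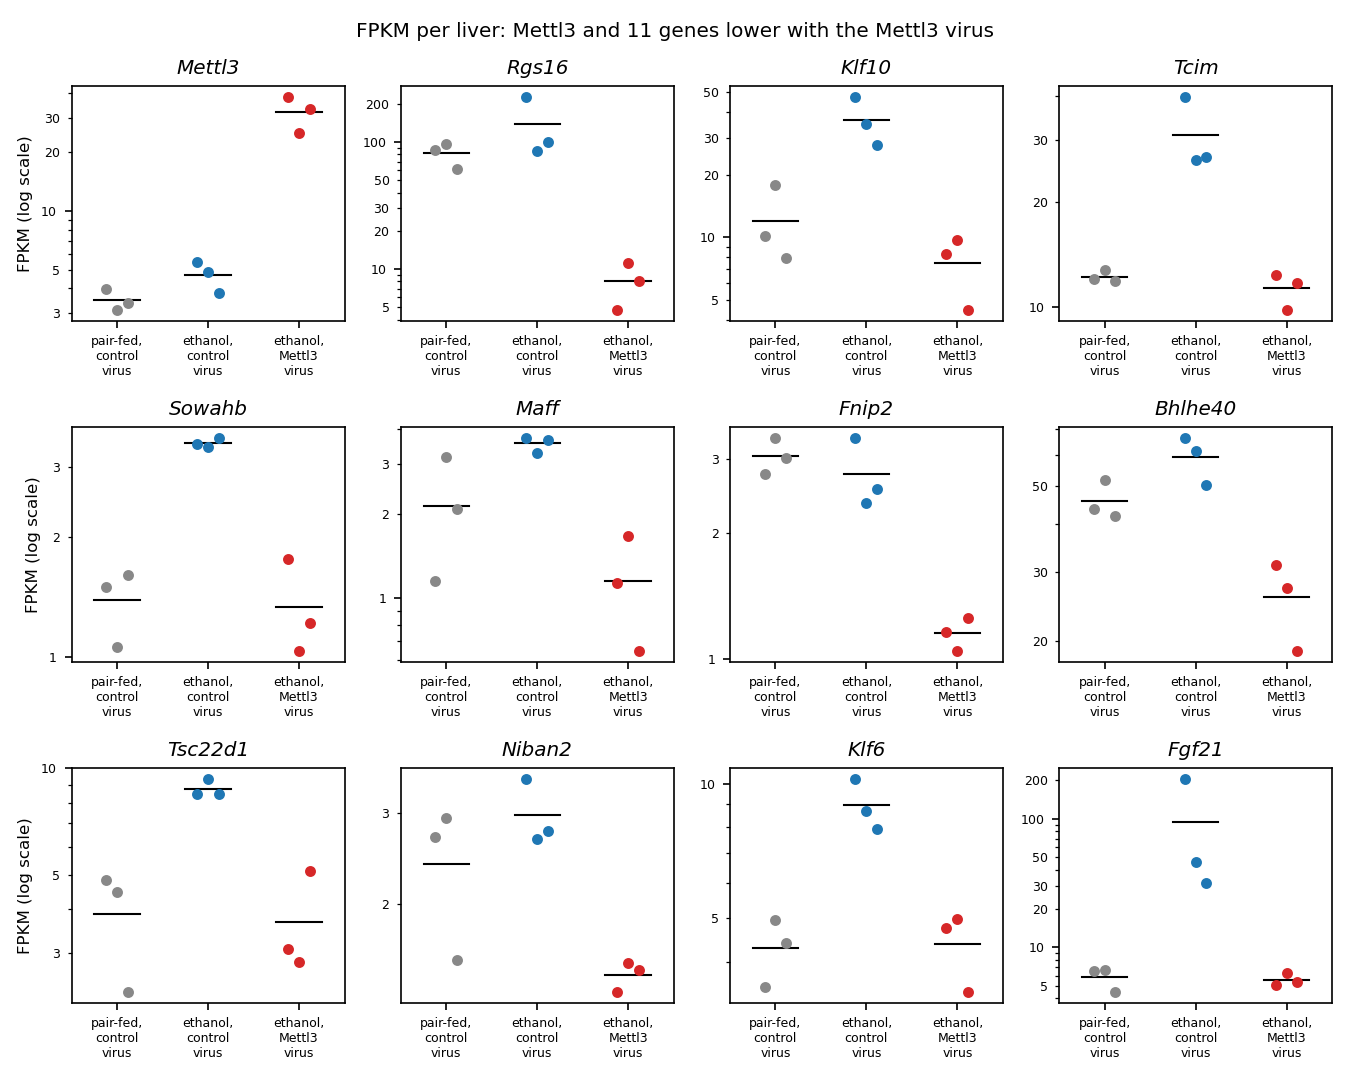
FPKM in each liver (points, log axes) and group mean (line) for Mettl3 and 11 genes that were lower with the Mettl3 virus; groups are pair-fed with the control virus, ethanol-fed with the control virus and ethanol-fed with the Mettl3 virus. Klf10, Tcim, Klf6 and Fgf21 have Mettl3-virus levels that overlap the pair-fed range, and Rgs16, Fnip2, Bhlhe40 and Niban2 have Mettl3-virus levels below it.

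Among 18 immediate early genes tested, 15 lay below 0 and 6 of these had an unadjusted p below 0.05, with a median of -0.32 that was -0.17 without control-virus liver 3. Rgs16, Klf10 and Klf6, which led the list, are also named lower genes. The list was chosen with earlier results of these data known, so its counts and level partly restate those genes. Dusp1, a phosphatase that ends MAP kinase signals, was at 16.6, 9.75 and 13.4 against 7.32, 5.36 and 8.24 FPKM, and Jun, part of the AP-1 factor, at 14.98, 15.2 and 13.2 against 10.3, 8.96 and 5.29 FPKM. Both had no overlap. Other textbook members showed no such separation: Fos, Egr1 and Ier2 had log2 fold changes of 0.06 (SE 0.33), -0.05 (SE 0.61) and -0.25 (SE 0.30), and Junb had 0.52 (SE 0.32). The list's level was 3.47 to 3.62 in the control-virus livers and 2.89 to 3.15 in the Mettl3-virus livers, as mean log2(FPKM + 1). Gadd45a, a DNA damage and stress response gene chosen after its values were seen, was at 33.2, 21.1 and 8.43 against 3.51, 3.34 and 2.35 FPKM (log2 fold change -2.25, SE 0.43, limma adjusted p 0.506). It belongs to another list, p53 targets and cell cycle genes, which did not lie lower. Of the 14 tested there, 9 were above 0, with a median of 0.08 and 1 higher and 2 lower at an unadjusted p below 0.05.

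Genes of fatty acid and triglyceride synthesis, which insulin and carbohydrate turn on through SREBP-1c and ChREBP, were lower in 21 of 22 tested members by sign. Of these, 8 had an unadjusted p below 0.05, and the median log2 fold change was -0.73. Pnpla3, a lipid droplet hydrolase under SREBP-1c, was at 1.66, 3.46 and 2.90 FPKM against 0.753, 0.667 and 1.23, and Scd1, the main stearoyl-CoA desaturase, at 2403, 3003 and 2592 against 1408, 1928 and 1934. In neither gene did the groups overlap. Lpin1, which makes diacylglycerol, was at 48.1, 20.6 and 37.9 against 20.1, 11.8 and 15.7 FPKM. Mlxipl, the gene of ChREBP, was at 52.0, 40.9 and 28.6 against 18.1, 18.8 and 30.5 FPKM, so Mettl3-virus liver 3 overlapped the control-virus livers. The same liver was high in Srebf1 (16.1 FPKM against 5.54 and 4.77 in livers 1 and 2), Fasn (94.0 against 32.4 and 43.9) and Acly (60.1 against 10.95 and 16.5), genes whose groups overlapped. Without Mettl3-virus liver 3 the list's median was -1.06 with 20 members at an unadjusted p below 0.05. Without control-virus liver 1 it was -0.56 with 4, and without both -0.80 with 15. Leaving out Mettl3-virus liver 1 or 2 also left 4 members at that p.

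Glucose handling was mixed, with 17 of 22 genes below 0, 4 lower and 2 higher at an unadjusted p below 0.05, and a median of -0.28. The median was -0.14 without Mettl3-virus liver 1, -0.18 without control-virus liver 1 and -0.42, with 11 lower at that p, without Mettl3-virus liver 3. Ppp1r3b, the liver subunit that directs a phosphatase to glycogen, was at 71.2, 34.1 and 32.8 against 9.46, 6.38 and 21.4 FPKM. G6pc, which releases glucose, was at 475, 194 and 118 against 43.4, 23.3 and 154 FPKM, and its groups overlapped through Mettl3-virus liver 3. Pck1 lay higher with the virus, as given above, as did Ldha, a lactate dehydrogenase subunit, at 117, 147 and 153 against 193, 187 and 191 FPKM. Angptl8, an insulin-induced inhibitor of lipoprotein lipase, was at 112, 25.2 and 53.9 against 17.7, 5.73 and 12.2 FPKM, with no overlap.

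Txnip, another ChREBP target, which restrains thioredoxin and glucose uptake, was named after its values were seen. It was at 85.1, 45.8 and 40.2 FPKM against 22.6, 17.6 and 23.2, below the pair-fed 60.5, 132 and 67.6 (log2 fold change -1.32, SE 0.28; limma adjusted p 0.569).

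Most sterol and bile acid genes had log2 fold changes below 0. Of 25 cholesterol synthesis genes, 22 were below 0 and 6 had an unadjusted p below 0.05, with a median of -0.33. Nsdhl, an enzyme of the later steps, was at 12.4, 11.2 and 8.41 against 5.58, 7.78 and 5.19 FPKM, with no overlap. The cholesterol median was -0.10 without control-virus liver 2 and -0.19 without Mettl3-virus liver 3, and 3 members had such a p without control-virus liver 1. Of 19 bile acid genes 18 were below 0 and 1 had an unadjusted p below 0.05, Abcb11, the bile salt export pump, at 82.9, 60.1 and 62.9 against 43.9, 39.1 and 56.8 FPKM. The bile acid median of -0.33 was -0.15 without control-virus liver 1, with 0 members at that p, and -0.52 without Mettl3-virus liver 3, with 8. With all 6 livers the share of bile acid genes at that p was near the 4.66% of all genes. Lipid droplet genes had 15 of 16 below 0 and 4 at that p, among them Hsd17b13, a droplet retinol dehydrogenase, at 207, 163 and 178 against 129, 124 and 140 FPKM. Only 1 droplet gene had such a p with median-ratio scaling and 1 with limma-voom, which had 12 of 16 below 0, and 2 had it without control-virus liver 1 and 2 without Mettl3-virus liver 1.

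Ethanol oxidation showed small differences. Of 18 alcohol and aldehyde genes 15 were below 0, 4 with an unadjusted p below 0.05, and the median was -0.23. Without Mettl3-virus liver 3 these were 10 and -0.42, and without Mettl3-virus liver 1 they were 1 and -0.15. Acss2, which turns acetate from ethanol into acetyl-CoA, was at 33.7, 22.9 and 27.0 FPKM in the control-virus livers and 8.38, 10.9 and 18.5 in the Mettl3-virus livers, below the pair-fed 39.1, 44.9 and 34.3 (log2 fold change -1.14, SE 0.28). Adh1, the main hepatic alcohol dehydrogenase, had -0.21 (SE 0.14). Cytochrome P450 genes of families 1 to 3 had 28 of 30 below 0 and 7 at an unadjusted p below 0.05, with a median of -0.26; limma-voom left 22 below 0, and the median was -0.14 without control-virus liver 1 and -0.15 without Mettl3-virus liver 2. The 7 became 13 without Mettl3-virus liver 3, 4 without Mettl3-virus liver 1 and 4 with the replicate block. Cyp2b10, a target of the receptor CAR, was at 15.2, 8.29 and 23.2 against 5.36, 4.67 and 5.58 FPKM, both far above the pair-fed 0.355, 0.389 and 0.401. Cyp2a5 reads may be shared with close family members; it was at 331, 216 and 175 against 83.1, 138 and 122 FPKM.

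Of 23 glutathione and NRF2 target genes 19 were below 0 and 4 had an unadjusted p below 0.05, with a median of -0.20 that ran from -0.30 to -0.13 over the settings tried. Limma-voom had 15 of the 23 below 0, and without Mettl3-virus liver 3 there were 8 lower and 1 higher at such a p. Gstm1 and Gstm3, glutathione transferases of a family whose copies can share reads, were at 348, 450 and 409 against 262, 329 and 288 FPKM and at 22.3, 35.9 and 32.5 against 12.5, 21.9 and 17.5 FPKM. Autophagy and lysosome genes had 17 of 21 below 0 and 3 at that p; Ulk1, the kinase that starts autophagy, was at 34.5, 19.5 and 17.4 against 10.3, 9.65 and 13.8 FPKM. In each of these 3 the groups did not overlap. Of the autophagy and lysosome genes, 7 had such a p without Mettl3-virus liver 3 and 5 without control-virus liver 3.

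Proteasome, oxidative phosphorylation and urea cycle genes had narrow intervals. All 25 proteasome genes tested were above 0, with a median log2 fold change of 0.13. Of them 11 had groups that did not overlap, all higher, and 2 had an unadjusted p below 0.05. Among all genes tested, 6.17% were separated higher and 2.79% were higher at that p. The 2 became 0 with the replicate block and without control-virus liver 1 or 2 or Mettl3-virus liver 1 or 2. They became 3 without Mettl3-virus liver 3. Each proteasome interval lay within 2-fold, and the median stayed between 0.11 and 0.21 over the settings tried. As mean log2(FPKM + 1) the control-virus livers were at 5.56, 5.58 and 5.60, the Mettl3-virus livers at 5.70, 5.78 and 5.73 and the pair-fed livers at 5.72, 5.64 and 5.73. Nuclear-encoded oxidative phosphorylation had all 26 intervals within 2-fold and a median of -0.06, which was 0.02 with limma-voom, and the urea cycle had all 10 within 2-fold. Interferon and antigen presentation genes had wider intervals, 24 of 35 within 2-fold, and a median of -0.25, with 31 below 0. By limma or limma-voom, 0 had an unadjusted p below 0.05 in either direction. Without control-virus liver 1 the interferon median was -0.04, with 23 below 0 and 0 at that p. It was -0.17 without both livers that stood apart, and -0.45, with 11 lower at that p, without control-virus liver 3.

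Cytosolic ribosomal proteins had 39 of 42 members above 0 and a median of 0.09. Of these, 5 (Rps3, Rplp0, Rps18, Rpl13 and Rps2) had log2 fold changes from 1.14 to 2.14, and in each control-virus liver 1 was far below the other 5 livers. Rplp0 was at 2.25 FPKM there and between 193 and 228 in the other 5 livers, and Rps3 at 2.23 against 87.9 to 115.

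**Figure D4:**
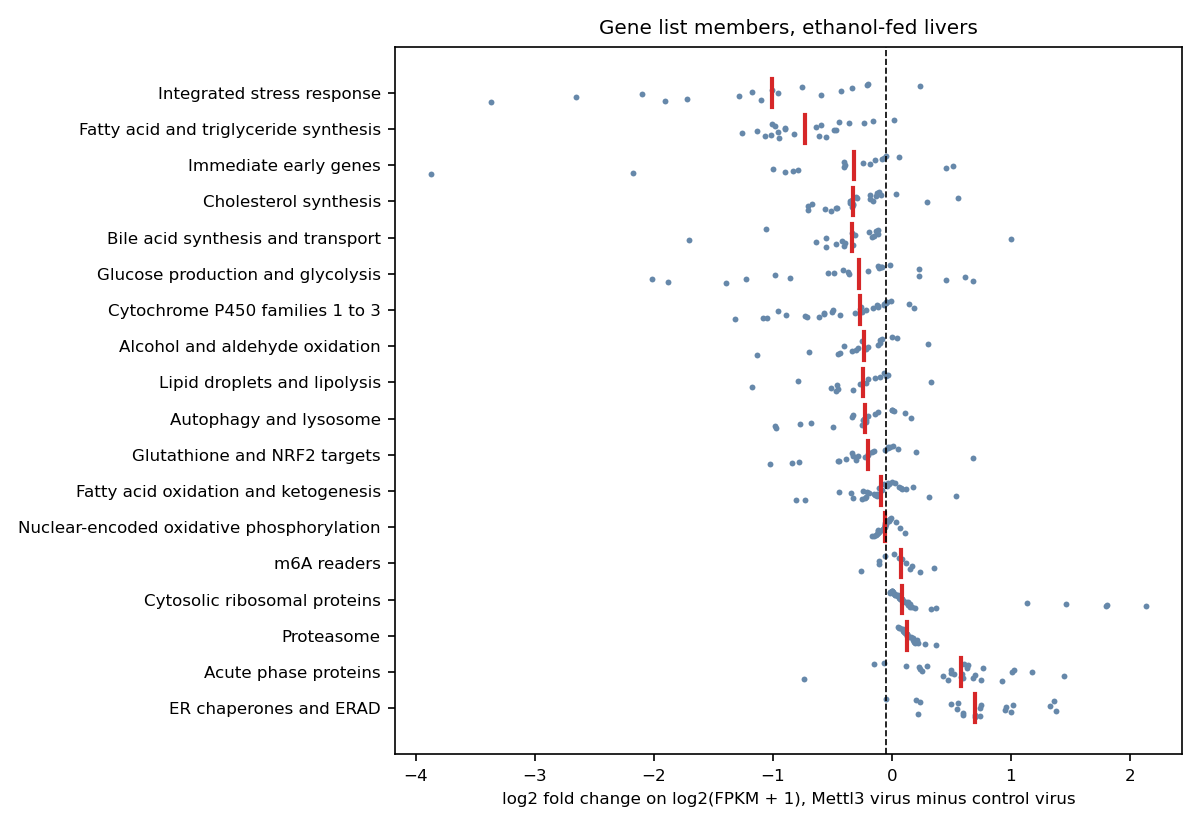
Log2 fold change (Mettl3 virus minus control virus, log2(FPKM + 1) scale) of each tested member (points) of 18 of the 48 gene lists. Red bars mark each list's median and the dashed line the median of all genes tested (-0.04). Lists left out include female-biased genes, with a median of -0.53 that was 0.03 without both livers that stood apart. Integrated stress response and lipid synthesis medians lie at -1.0 and -0.73, acute phase and chaperone medians at 0.58 and 0.70, and the oxidative phosphorylation points crowd near 0.

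The higher genes at least 2-fold apart without overlap were few, 7 of the 11 being protein-coding. Besides Mettl3 they included Pim3 and Pim1, serine/threonine kinases of survival signalling, named after their values were seen. Pim3 was at 5.28, 5.55 and 8.84 FPKM in the control-virus livers and 8.99, 29.3 and 19.6 in the Mettl3-virus livers, against 11.5, 18.1 and 21.6 in the pair-fed livers. Its groups barely separated, since control-virus liver 3 and Mettl3-virus liver 1 were almost level. Pim1 was at 1.49, 4.05 and 3.45 against 4.35, 8.51 and 6.40 FPKM, beside 9.47, 7.26 and 7.44 in the pair-fed livers (log2 fold change 0.92, SE 0.31; limma adjusted p 0.641). Of the 77 lower genes 67 were protein-coding. They included Slc34a2, a phosphate transporter, at 15.9, 5.51 and 7.08 against 0.869, 1.31 and 2.64 FPKM, which was at 0.30 FPKM or less in the pair-fed livers. They also held Aqp8, a water and peroxide channel, at 36.2, 20.2 and 17.96 against 7.22, 8.13 and 9.86 FPKM, and 45.5, 46.3 and 43.9 in the pair-fed livers. Slc34a2 and Aqp8 were likewise chosen after their values were seen.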

How the data were processed

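Members and gene lists were chosen with earlier results of these data known. The submitters' processing notes name fastp, HISAT2, HTSeq and the build mm10; versions and the strand setting are not given in the sources used here. The authors deposited FPKM per library in 2 tables, whose shared columns differ by a relative 1.08e-06 at most, and signal columns (means of counts divided by size factors, per the file headers), which served only to recover reads, 100% whole within a tolerance of 0.05 for values under 5000 reads. Deposited fold, p and q columns were not used. Genes were matched by Entrez number to RefSeq (9688 of 9706 tested).

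Where at least 3 livers reached FPKM 1, log2(FPKM + 1) was fitted on the 6 libraries with limma 3.58.1 (lmFit, eBayes, trend, robust, R 4.3.3). Benjamini-Hochberg adjustment was applied at 0.05. On simulated data with independent noise per gene, the fit called 55.2% of 2-fold and 90.4% of 4-fold changes. In the real livers many genes varied together, so these shares may not hold there. Since the deposited unit is FPKM, limma-voom on recovered reads was an alternative and not the main test. Named genes are Mettl3 and, per direction, the 12 smallest p among non-overlapping genes at least 1.5-fold apart with a mean FPKM of at least 1 in the higher group, predicted genes and pseudogenes aside; from each list at most 4 members with the smallest p; and all m6A writers and erasers. Further list members, chosen after their values were seen, show the spread within a list. The values of some single genes that the rule names are not reported here. Alternatives were another pseudocount (0.1), filters (none, FPKM 5), median-ratio scaling, limma-voom on recovered reads, all 9 libraries, a replicate block and leaving out livers. Tables were made in Python 3.11.15 (pandas 2.3.3, numpy 2.4.6) and figures with matplotlib 3.10.9.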

Additional observations from a re-analysis of the deposited data

How the results depend on the processing

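The Mettl3 log2 fold change of 2.54 held its direction in all 13 alternatives, from 2.40 to 2.85, but limma's adjusted p (0.0257) ran from 0.00101 to 0.238. The call was lost with no filter (2.54, adjusted p 0.0875) and without both livers that stood apart (2.60, adjusted p 0.0618), an alternative chosen after seeing the data. Leaving out single livers gave 2.40 to 2.70, with the call lost in 4 of 6. The count of called genes, 1, was 3 with all 9 libraries (Mettl3, Rgs16 and Tcim), 0 with no filter, 0 without both livers, and 0 to 2 when single livers were left out. Genes at least 2-fold apart without overlap, 11 higher and 77 lower, numbered 2 and 42 with the FPKM 5 filter, 132 and 437 with no filter, and 34 and 160 without both livers. Without single livers they ran from 11 to 79 and from 42 to 327, the highest counts without Mettl3-virus liver 3. Fewer livers make separation easier. Replicate numbers gave no pairing: deviations of same-numbered livers correlated at -0.36, 0.40 and -0.42, and not every liver correlated best with its own number. With the replicate block the count was 0, and Mettl3 stood at 2.54 with adjusted p 0.238. Of list medians, 18 of 670 alternatives moved by more than the SD of the list's level within groups. The livers that stood apart enter that SD, which was 0.79 for chaperones. The chaperone median's fall from 0.70 to 0.28 without control-virus liver 1 was therefore not counted as moved. Reversal was scored only for genes at an unadjusted p below 0.05 in the main fit or an adjusted one in the alternative. Of these 0 reversed, and sign changes of other genes were not counted. Genes at unadjusted p below 0.05 were 271 higher and 452 lower, and 145 higher and 683 lower without control-virus liver 3. Read totals per liver ran from 34655840 to 38159563.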
